A study of Mus musculus with 21 samples.

Results

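The family of miR-15, miR-16, miR-195 and miR-497 is a group of microRNAs (miRNAs) that hold back the cell cycle, and 6 of its mature forms were followed here by name out of the 1647 miRNAs listed in the count table: mmu-miR-15a-5p, mmu-miR-15b-5p, mmu-miR-15b-3p, mmu-miR-16-5p, mmu-miR-195a-5p and mmu-miR-497a-5p. The members were taken from a list of names described as sharing a seed, the stretch of bases 2 to 8 by which a miRNA finds its targets. The sequences bear this out for 5 of the 6, and miR-15b-3p, the other arm of the miR-15b hairpin, has a different seed and is described beside them.

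Small RNA was sequenced in 21 libraries from the mouse cochlea and the superior olivary complex (SOC), a set of auditory nuclei of the brainstem, at embryonic day 16 (E16), postnatal day 0 (P0) and postnatal day 16 (P16), to compare how miRNA levels change as both organs mature. The cochlea, whose labels give the inner ear sensory epithelium as the cell type, has 2 from E16 and 4 each at P0 and P16. The SOC, labelled neuronal, has 4 each at E16 and P0 and 3 at P16. All samples are wild type (WT) with treatment none. The study's methods give C57BL/6JOlaHsd mice for the cochlea and C57Bl6/J mice for the SOC, both sexes, with tissue of several animals pooled in a sample. Cochlear RNA was extracted with a Direct-zol kit and made into libraries with the SMARTer smRNA-Seq kit, and SOC RNA with an innuPREP kit and TruSeq Small RNA. Organ, strain and kit therefore coincide and cannot be told apart, so no level is compared between organs. Total counts ran from 124400 to 447419 in the cochlea (median 196885) and from 8309669 to 18053698 in the SOC (median 11706138).

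As background, these miRNAs bind messenger RNAs of the G1 to S step, among them those of D-type and E-type cyclins and the kinases that work with them, and lower their output. miR-15a and miR-16 are known from chronic lymphocytic leukaemia, where their locus is often lost, and miR-195 from the heart, where it rises after birth as muscle cells stop dividing. In the inner ear and the auditory brainstem, the precursors of hair cells and neurons leave the cell cycle in the embryo, while supporting, glial and vascular cells go on dividing for longer.

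The mature sequences of the 6 members, all found in RefSeq (GRCm38.p6), are shown because 5 of them share a seed and differ only outside it. They are written 5′ to 3′ with the seed in capitals, and are grouped by it. The first 5 share a seed:
miR-15a-5p: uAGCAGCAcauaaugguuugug
miR-15b-5p: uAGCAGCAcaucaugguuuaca
miR-16-5p: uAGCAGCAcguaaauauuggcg
miR-195a-5p: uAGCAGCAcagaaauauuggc
miR-497a-5p: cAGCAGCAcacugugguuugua
miR-15b-3p: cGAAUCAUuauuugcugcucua

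Bases outside the seed set the members that share it apart. miR-16-5p and miR-195a-5p have the same base at 19 of the 21 positions they share, and differ from miR-16-5p to miR-195a-5p by G10A and U11G, counted from 1 at the 5′ end. miR-15a-5p and miR-15b-5p are alike at 18 of 22 positions, and miR-16-5p and miR-497a-5p at 11 of 22. How reads that fit more than 1 such sequence were assigned is not stated, so the low counts of miR-195a-5p beside the much higher ones of miR-16-5p are uncertain to that extent. Of the 1415 listed miRNAs with a RefSeq sequence, 8 carry the seed: the 5 members, miR-195b, miR-322-5p and miR-6419.

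The members come from 3 clusters. Mir15b and Mir16-2 lie 66 bases apart on the plus strand, with miR-15b-5p at chr3:69009775-69009796, miR-15b-3p at chr3:69009813-69009834 and a copy of miR-16-5p at chr3:69009918-69009939, in introns of all 5 transcripts of Smc4 that span them. Smc4 encodes a subunit of condensin, which packs chromosomes for division. Mir15a and Mir16-1 lie 54 bases apart on the minus strand, with miR-15a-5p at chr14:61632075-61632096 and the other copy of miR-16-5p at chr14:61631936-61631957, in introns of 8 transcripts of the non-coding gene Dleu2. Mir497 and Mir195a lie 241 bases apart on the plus strand, with miR-497a-5p at chr11:70234730-70234751 and miR-195a-5p at chr11:70235062-70235082. Counts of mature miR-16-5p cannot be divided between its 2 loci.

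The SOC libraries fall into 3 sets that the labels do not name, and every SOC result below is given with this in view. In set A (E16 replicates 2 and 3, P0 replicates 2 and 3) miR-99b-5p takes 17.2 to 19.6% of counts, against 1.43 to 3.84% in the other 7 libraries. In set C (P0 replicate 4, P16 replicates 2 and 3) miR-191-5p takes 0.277 to 0.322%, against 3.84 to 8.15% in the other 8. Set B holds the remaining 4 libraries (E16 replicates 1 and 4, P0 replicate 1, P16 replicate 1). The sets were defined from these counts and not from the family. Without set C the P16 age is left with 1 library, replicate 1, which every test without that set assumes to vary like the other ages. Within set B or set C alone, each comparison has 1 library on at least 1 side, so no call from them is used. What they stand for was not tested.

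Marker miRNAs were checked against the labels. The 3 miRNAs of inner ear sensory cells (miR-96-5p, miR-182-5p and miR-183-5p) were all present in every cochlear library, with a summed level of 52240.0 and 55891 CPM at E16, 33753 to 38017 at P0 and 16693 to 38412 at P16, where CPM is the count rescaled to a common library total by the trimmed mean of M values (TMM). The same 3 were also high in the SOC at E16, at 85041 to 164668 CPM, and lower at P16, at 521 to 3502 CPM, where all 3 were called lower than at E16. Neuronal markers (miR-124-3p, miR-9-5p, miR-128-3p, miR-138-5p and miR-218-5p, none of them at 0) summed to 40960.4 to 119489 CPM in the SOC at E16, 63601 to 111845 at P0 and 45864 to 56101 at P16. miR-9-5p was the most abundant of them in all libraries of sets A and B, miR-124-3p in P0 replicate 4 and miR-138-5p in P16 replicates 2 and 3. The mean of miR-9-5p was 68982 CPM at E16 and 17046 at P16, while miR-124-3p (2141 and 12832) and miR-138-5p (1729.7 and 17741) were called higher at P16 than at E16. Both were also called with the set added to the fit, and miR-124-3p ran from 4259 to 17503 CPM at P16. In the cochlea the neuronal markers summed to 3022 to 3504 CPM at E16, 700.3 to 1295 at P0 and 1160.1 to 1734 at P16, where miR-138-5p was called higher than at E16 and miR-124-3p, miR-128-3p and miR-9-5p lower. In these bulk samples, fewer cells of a type and less RNA per cell cannot be told apart, and this holds for every level reported here.

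Members with the shared seed made up a small part of the counts. Together they took 0.0670 to 0.508% of counts in cochlear libraries and 0.836 to 6.77% in SOC libraries, with 3.54 to 6.77% in the 3 of set C. miR-16-5p made up 92.7 to 95.8% of these family counts in the SOC and 27.8 to 78.5% in the cochlea.

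In the cochlea at E16, the order of mean levels was miR-15b-5p (1401 ± 919.7 CPM, SD, n = 2), miR-16-5p (1388 ± 633), miR-15b-3p (1002 ± 117), miR-497a-5p (43.6 ± 19.4), miR-15a-5p (7.18 ± 5.23) and miR-195a-5p (6.68 ± 2.08). The top 3 overlapped, miR-497a-5p stood apart on both sides, and the lowest pair overlapped. At P0 it was miR-15b-5p (699.8 ± 75.4, n = 4), miR-16-5p (529.7 ± 229), miR-15b-3p (149 ± 36.7), miR-497a-5p (64.6 ± 56.5), miR-195a-5p (9.48 ± 12.4) and miR-15a-5p (4.87 ± 9.75). Neighbours overlapped there except miR-16-5p and miR-15b-3p. By P16 miR-16-5p came first (1041 ± 508, n = 4), then miR-15b-5p (230.4 ± 56.9), miR-497a-5p (215 ± 75.4), miR-15b-3p (108 ± 90.9), miR-195a-5p (61.0 ± 36.2) and miR-15a-5p (1.86 ± 3.72). At that age miR-16-5p stood above all others and miR-15a-5p below all others, and the 4 between them overlapped as neighbours. Mature sequences of 21 or 22 bases need no length scaling, but how well each is captured by a kit was not measured.

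**Figure D1:**
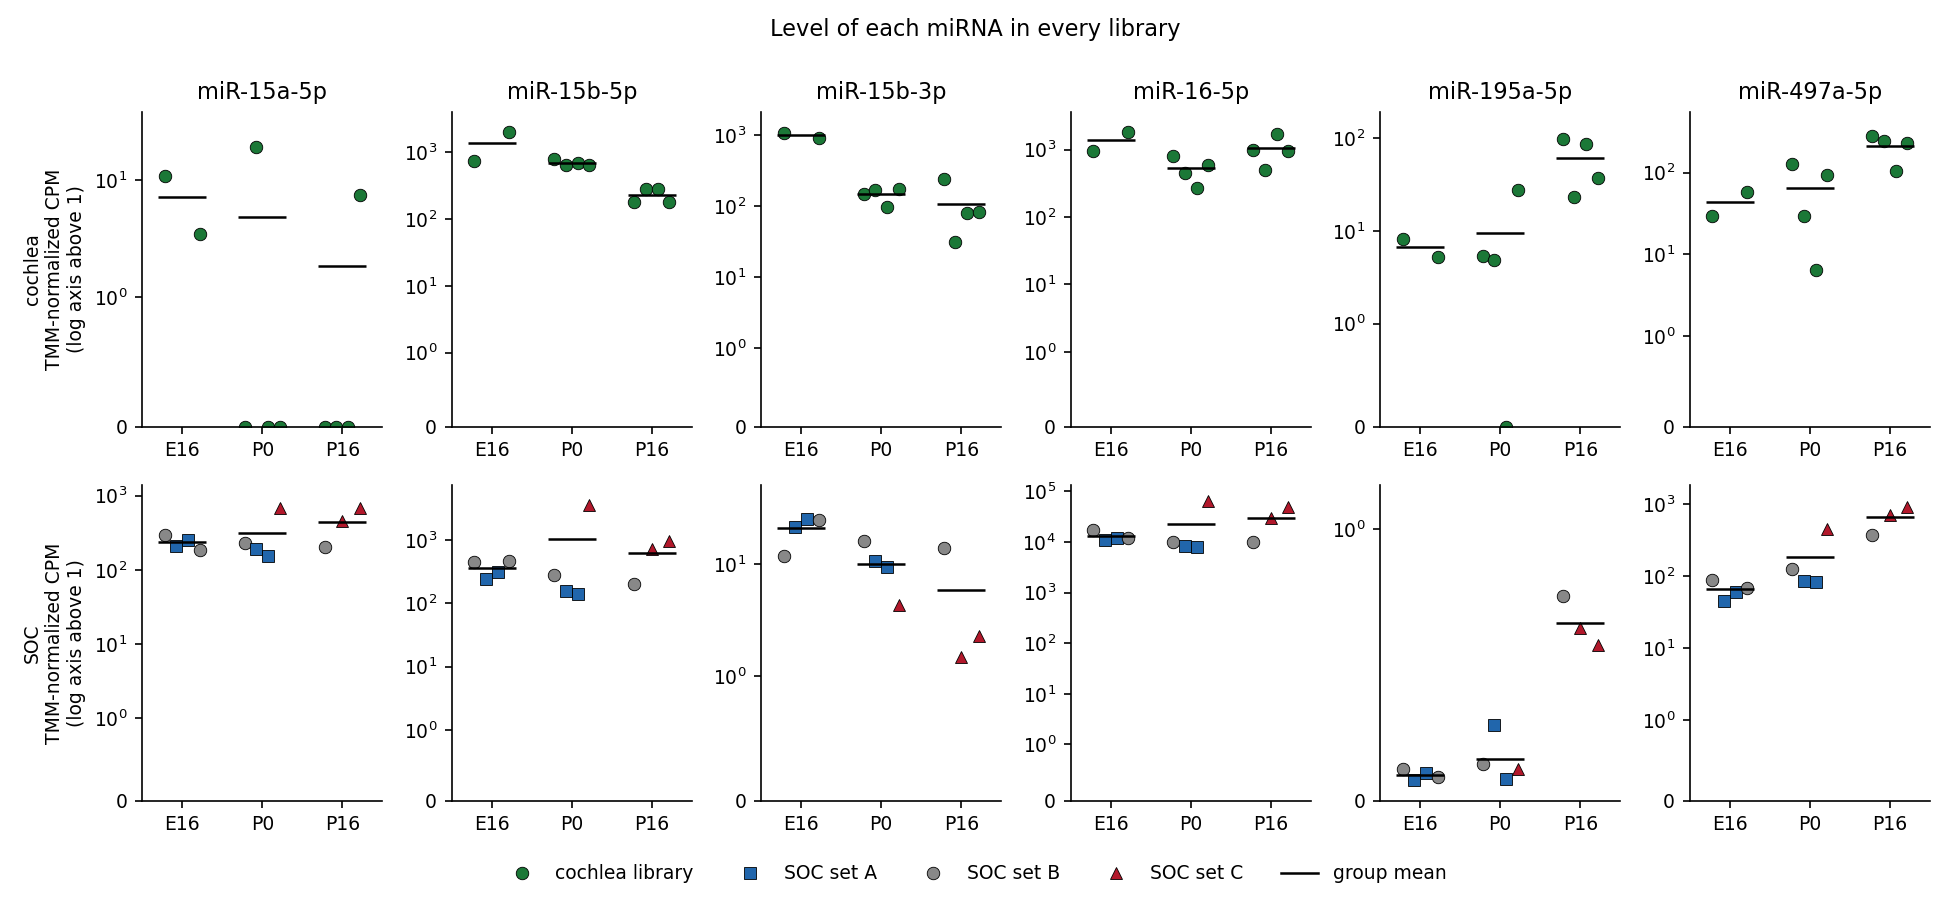
Level of each of the 6 members in every library, in TMM-normalized CPM on an axis that is logarithmic above 1, by time point, with the cochlea in the upper panels and the SOC in the lower ones. Points are libraries, horizontal lines group means, and SOC symbols give the library set: miR-15b-5p in the cochlea goes from 750.3 and 2051 CPM at E16 to 179 to 280.3 at P16, and set C stands high for miR-16-5p in the SOC (29343 to 65421 CPM).

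In the cochlea, both arms of the chromosome 3 hairpin of miR-15b were lower at P16 than at E16, and the 2 members of the chromosome 11 cluster were higher. miR-15b-5p, which slows the G1 to S step, stood at 750.3 and 2051 CPM at E16, at 808, 643, 694 and 654 at P0 and at 184, 280.3, 279 and 179 at P16. All 4 libraries of P16 lay under all 6 of the earlier ages, while P0 overlapped E16 because E16 replicate 1 lay within the P0 range. The fall from E16 to P16 was 6.09-fold (log2 fold change -2.61, SE 0.419, adjusted p = 1.09e-08) and that from P0 to P16 3.04-fold (-1.60, SE 0.370, adjusted p = 0.000234). Between E16 and P0 the log2 fold change was -1.0 (SE 0.412, adjusted p = 0.0564), which missed the threshold. Adjusted p-values are from edgeR and span all 896 miRNAs tested in the cochlea, and all p-values here measure only the spread between these samples. A miRNA was called when its adjusted p was under 0.05, its fold change over 1.5 and its libraries did not overlap between the 2 ages.

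The fall of miR-15b-5p from E16 to P16 was called without either E16 library, at -3.16 without replicate 1 and -1.84 without replicate 2, each with a lone E16 library that is assumed to vary like the other groups. Its P0 value was sensitive to single choices. It was called with DESeq2 (-1.0) and when each library had to hold 10 counts or more (-1.14). It was also called with scaling by library totals (-1.45), which moved the median of all tested miRNAs by -0.38. Without E16 replicate 1, with replicate 2 the lone E16 library, it was -1.56. Without E16 replicate 2 little of the fall was left (-0.15, adjusted p = 0.906), and limma gave -0.29. Its fall from P0 to P16 was called in every alternative except a single fit of all 21 libraries (-1.52, adjusted p = 0.228, against a range of 0.000118 to 0.228 over 20 alternatives).

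miR-15b-3p, the other arm of the same hairpin, with its own seed and no role named here, stood at 1085 and 919 CPM at E16, at 149.8, 171, 96.4 and 177 at P0 and at 239.9, 31.1, 79.7 and 81.8 at P16. Both E16 libraries were high and all 8 later ones low, while P0 and P16 overlapped. It fell 6.70-fold from E16 to P0 (-2.74, SE 0.449, adjusted p = 3.01e-08) and was 8.93-fold lower at P16 than at E16 (-3.16, SE 0.458, adjusted p = 1.83e-10, and -3.95 without P16 replicate 1). From P0 to P16 the log2 fold change was -0.41 (SE 0.416, adjusted p = 0.545), and without P16 replicate 1, its highest library of that age, it was -1.20 and called. Without P16 replicate 2, its lowest, it was -0.030.

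miR-16-5p, which acts on the same cyclin messages, stood at 941 and 1835 CPM at E16, at 813, 448, 269.8 and 587 at P0 and at 985, 491, 1720.3 and 967 at P16. P0 lay under E16, and P16 spread over both. Its P0 level was 2.62-fold lower than at E16 (-1.39, SE 0.404, adjusted p = 0.00443). That call rests on E16 replicate 2, without which the value was -0.87 (adjusted p = 0.338), and it was also lost with limma (-0.77) and in a single fit of all 21 libraries (-1.40), over a range of adjusted p from 0.000158 to 0.375 in 20 alternatives. From P0 to P16 the log2 fold change was 0.97 (SE 0.349, adjusted p = 0.0407), with overlap between the ages and so not called. Without P16 replicate 2 it was 1.27 and called. Between E16 and P16 it was -0.42 (SE 0.410, adjusted p = 0.431), and the sign turned with limma (0.20) and without E16 replicate 2 (0.03).

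miR-15a-5p, the partner of miR-16 on chromosome 14, was at or near the floor in the cochlea. Its counts were 4 and 2 at E16, 0, 4, 0 and 0 at P0 and 0, 0, 0 and 1 at P16, where 3 counts, the limit that a count of 0 allows, correspond to 5.21 to 23.3 CPM. No difference was detectable at this depth, and no fold change is given. Such limits and the intervals given here cover counting error only, since reads amplified without molecular identifiers are not independent molecules.

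The chromosome 11 members went the other way. miR-195a-5p, which arrests dividing heart muscle cells in the mouse, had 3 and 3 counts at E16, 1, 1, 0 and 5 at P0 and 19, 3, 13 and 5 at P16. In CPM these were 8.16 and 5.21, then 5.35, 4.87, 0 and 27.7, then 97.0, 23.4, 86.3 and 37.2. All 4 libraries of P16 exceeded both of E16, but P16 replicate 2 lay under P0 replicate 4. Summed over the libraries, 40 counts at P16 against 6 at E16 gave a ratio of 10.3 (95% exact interval 4.35 to 29.8) after scaling, and 40 against 7 at P0 gave 6.83 (3.03 to 18.1). P0 against E16 gave 1.51 (0.435 to 5.44), an interval that covers equality.

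In the edgeR test the P16 level of miR-195a-5p passed against E16 (3.16, SE 0.970, adjusted p = 0.00551). The call was lost without E16 replicate 1 (3.42) or replicate 2 (2.72), each of which leaves a lone E16 library assumed to vary like the other groups, and with replicate number as a block (2.75), the adjusted p running from 0.00192 to 0.155 over 19 alternatives. Against P0 it passed on adjusted p alone (2.63, SE 0.813, adjusted p = 0.0109), and was called without P0 replicate 4 (3.94) or P16 replicate 2 (2.97).

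miR-497a-5p, cut from the same stretch of chromosome 11 and also known to lower cyclin messages, stood at 29.9 and 57.4 CPM at E16, at 128, 29.2, 6.42 and 94.2 at P0 and at 281, 241, 106 and 231 at P16. P16 lay above E16 throughout, and its lowest library fell under P0 replicate 1. The P16 level was 4.81-fold that of E16 (2.26, SE 0.616, adjusted p = 0.00146). The call was lost without E16 replicate 1 (1.89) and in a single fit of all 21 libraries (2.38), the adjusted p running from 0.000809 to 0.0955 over 19 alternatives. From P0 to P16 the value was 1.72 (SE 0.488, adjusted p = 0.00475), not called because of overlap, and called without P0 replicate 1 (2.31) or P16 replicate 3 (1.94). P0 against E16 gave 0.55 (SE 0.600, adjusted p = 0.515), and -0.07 without P0 replicate 1.

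Counted over the family, all 6 members passed the filter for testing in the cochlea, a level over 1 CPM in 2 or more replicates of some age. Between E16 and P0, 2 were called lower, where 16.6% of the 896 tested miRNAs were called lower, and none higher, where 7.81% were (edgeR), with 3 members at an unadjusted p under 0.05 and 3 called by DESeq2, all lower. Without E16 replicate 2, which leaves a lone E16 library, the value of miR-16-5p was -0.87. The count of calls in that fit is not set beside these shares. Between E16 and P16, 2 were called lower against 18.6% and 2 higher against 10.9%, 4 in all. Without E16 replicate 1, again with a lone E16 library, the value of miR-497a-5p was 1.89, and that count is not compared either. From P0 to P16, 1 was called lower against 6.58% and none higher against 3.91% (edgeR), with 4 at an unadjusted p under 0.05 and 1 called by DESeq2. The edgeR count became 2 without P0 replicate 1 or P0 replicate 4, where 90 of 873 and 84 of 867 tested miRNAs were called. It was also 2 without P16 replicate 1 or P16 replicate 3, where 102 of 868 and 89 of 875 were. Without P16 replicate 2 it was 3, where 135 of 873 were, against 94 of 896 in the full fit. The median log2 fold change of the members was -0.69, -1.08 and 0.28 in these comparisons, beside 0.00, -0.09 and 0.05 over all tested miRNAs, and nothing particular to the family is read from it.

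**Figure D2:**
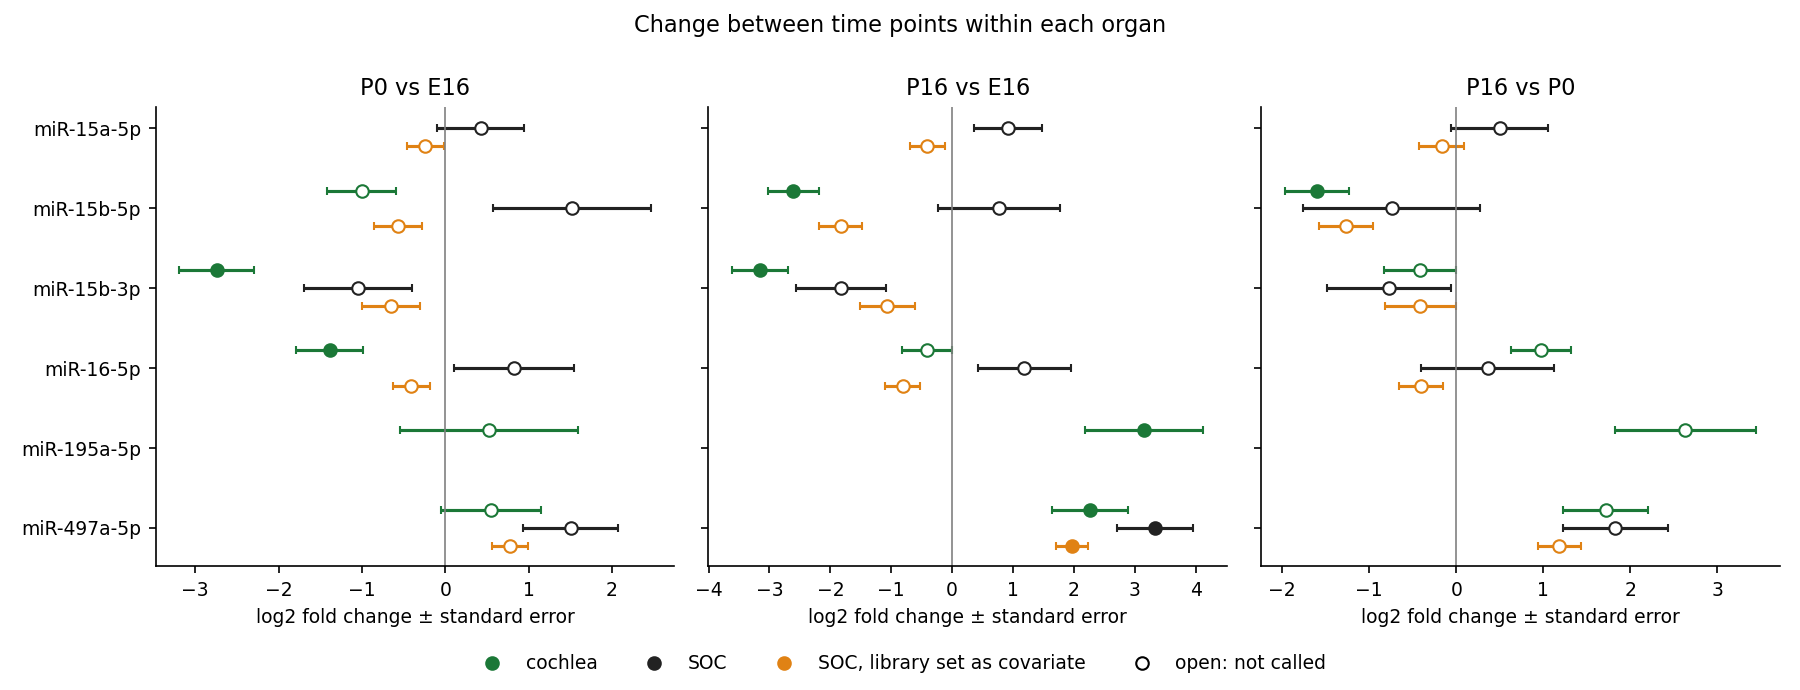
Log2 fold change of each member between ages, with its standard error, in the cochlea, in the SOC and in the SOC after the set was added to the fit as a covariate, with filled points for called changes and open ones for the rest. Cochlear miR-15b-5p lies at -2.61 and miR-497a-5p at 2.26 for P16 against E16, and in the SOC miR-497a-5p lies at 3.33, or 1.96 with the covariate. miR-15a-5p is left out for the cochlea and miR-195a-5p for the SOC, where counts were too low.

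In the SOC, miR-497a-5p was the member called higher at P16 than at E16. All 5 tested members, miR-497a-5p included, separated set C from the other 8 libraries, and 2 of the 3 libraries of P16 are of set C. miR-497a-5p stood at 87.5, 44.9, 60.4 and 69.4 CPM at E16, at 125, 86.6, 82.3 and 449 at P0 and at 368, 709 and 904 at P16. P16 lay above E16 in all 3 libraries, and P0 replicate 4, of set C, lay within the P16 range. By set, it ran from 449 to 904 CPM in set C and from 44.9 to 368 in the others, where P16 replicate 1 was the highest. Its P16 level was 10.1-fold that of E16 (3.33, SE 0.629, adjusted p = 0.00163 over 694 tested miRNAs). With the set as a covariate the value was 1.96 (SE 0.262, adjusted p = 2.59e-05), and without set A it was 3.01. It was called in both, with adjusted p from 8.8e-07 to 0.0317 over the 23 alternatives that keep 2 or more libraries at both ages. Without set C, where P16 is replicate 1 alone, the value was 2.45.

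Between P0 and P16, miR-497a-5p had a log2 fold change of 1.83 (SE 0.603, adjusted p = 0.0531), just short of the threshold. It was called without P0 replicate 4 (2.77), without P16 replicate 1 (2.31) and when each library had to hold 10 counts or more (2.07), the adjusted p running from 0.00153 to 0.341 over 23 alternatives. Without set C, with replicate 1 the lone P16 library, it was 1.79. With the covariate it was 1.19 (adjusted p = 0.00177) with overlap. From E16 to P0 it was 1.5 (SE 0.569, adjusted p = 0.136), and 0.78 with the covariate (adjusted p = 0.0129, with overlap). It was 0.65 without P0 replicate 4 and 0.75 in set A alone, where it was called. Each P0 library lay above the E16 library of the same replicate number.

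miR-16-5p, the most abundant member, stood in the SOC at 17175, 11099, 11794 and 11829 CPM at E16, at 10124, 8170.4, 8122 and 65421 at P0 and at 9830.4, 29343 and 49163.5 at P16. The 3 libraries of set C ran from 29343 to 65421 CPM and the 8 others from 8122 to 17175, so that the sets did not overlap and the ages did. Against E16, the log2 fold change was 0.82 at P0 (SE 0.717, adjusted p = 0.553) and 1.18 at P16 (SE 0.765, adjusted p = 0.223). With the covariate both turned negative, to -0.41 (SE 0.225) and -0.81 (SE 0.284), the latter with an adjusted p of 0.0264 and overlapping ages, over a range of 0.0264 to 0.571 in 23 alternatives. Without set C they were -0.49 and -0.44, and without P0 replicate 4 alone the P0 value was -0.49. From P0 to P16 the value was 0.36 (SE 0.766, adjusted p = 0.758), -0.41 with the covariate, -0.035 without P16 replicate 3, 0.99 without P16 replicate 1 and 1.78 without P0 replicate 4 (adjusted p = 0.0212, with overlap).

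miR-15b-5p followed the same libraries. It stood at 446, 241, 313 and 457 CPM at E16, at 280.1, 158, 138 and 3593 at P0 and at 204, 715 and 947 at P16, with set C at 715 to 3593 and the rest at 138 to 457. Its log2 fold changes, none of them called, were 1.52 at P0 against E16 (SE 0.949, adjusted p = 0.386), 0.77 at P16 against E16 (SE 0.996, adjusted p = 0.540) and -0.74 at P16 against P0 (SE 1.02, adjusted p = 0.633). With the covariate these became -0.57, -1.83 (SE 0.349) and -1.27 (SE 0.313), and the last pair passed on adjusted p (0.000553 and 0.00563) but not on overlap, within ranges of 0.000553 to 0.809 and 0.00563 to 0.960 over 22 and 22 alternatives. Without P0 replicate 4 the P0 value was -0.86 and the value from P0 to P16 was 1.73 (adjusted p = 0.0283, with overlap), against -0.074 without P16 replicate 1. In set A alone it was called lower at P0 than at E16 (-0.84).

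miR-15a-5p, well above the floor here, stood at 294, 207, 251 and 187 CPM at E16, at 228, 193, 153 and 686 at P0 and at 202, 459.9 and 670.5 at P16. Set C again lay above, at 459.9 to 686 CPM against 153 to 294. The values were 0.42, 0.92 and 0.50 for P0 against E16, P16 against E16 and P16 against P0, and -0.24, -0.41 and -0.17 with the covariate, none of them called. Without P16 replicate 1, the P16 library outside set C, P16 against E16 was 1.40 and called, and without P0 replicate 4 P0 against E16 was -0.23. P16 against P0 was 1.25 without P0 replicate 4 (adjusted p = 0.0451, with overlap), 1.02 without P16 replicate 1 and 0.23 without P16 replicate 3.

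miR-15b-3p was lowest in set C, where its partner arm was highest. It stood at 11.96, 21.8, 25.4 and 24.9 CPM at E16, at 16.1, 10.7, 9.48 and 4.30 at P0 and at 14.0, 1.48 and 2.30 at P16. Set C lay at 1.48 to 4.30 CPM against 9.48 to 25.4. The values were -1.04, -1.82 (SE 0.738, adjusted p = 0.0639) and -0.77 in the same order, and -0.65, -1.06 and -0.41 with the covariate, none of them called, and with the covariate both arms had negative values in all 3 comparisons. Without P16 replicate 1 it was called lower at P16 than at E16 (-3.34) and than at P0 (-2.33), and in set A alone at P0 against E16 (-1.16).

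miR-195a-5p did not reach the filter in the SOC, with counts of 2, 1, 1 and 1 at E16, 3, 3, 1 and 1 at P0 and 8, 6 and 6 at P16, all under 1 CPM. The P16 libraries were the highest of the 11. The 20 counts at P16 against 5 at E16 gave a scaled ratio of 6.76 (95% exact interval 2.46 to 23.0) and against 8 at P0 a ratio of 4.45 (1.88 to 11.7), while P0 against E16 gave 1.52 (0.438 to 5.90). The 3 P16 libraries came from both set B and set C.

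The order of mean levels in the SOC at E16 was miR-16-5p (12974 ± 2820.5 CPM, SD, n = 4), miR-15b-5p (364 ± 105), miR-15a-5p (235 ± 47.7), miR-497a-5p (65.5 ± 17.8), miR-15b-3p (21.01 ± 6.25) and miR-195a-5p (0.0953 ± 0.0174), and of the neighbours the pair of miR-15b-5p and miR-15a-5p overlapped. At P0 the same order held with wider spreads, miR-16-5p at 22959 ± 28323 (n = 4), miR-15b-5p at 1042 ± 1702, miR-15a-5p at 315 ± 249, miR-497a-5p at 186 ± 176, miR-15b-3p at 10.1 ± 4.82 and miR-195a-5p at 0.152 ± 0.0871. There miR-15b-5p, miR-15a-5p and miR-497a-5p overlapped. At P16 miR-16-5p (29445.5 ± 19667, n = 3) was followed by miR-497a-5p (660.2 ± 271), miR-15b-5p (622 ± 380.1), miR-15a-5p (444 ± 235), miR-15b-3p (5.93 ± 7.01) and miR-195a-5p (0.654 ± 0.0905). The 3 after miR-16-5p overlapped.

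Of the 5 members tested in the SOC, none was called between E16 and P0 by edgeR, where 2.45% of the 694 tested miRNAs were called higher and 4.18% lower. There 1 member had an unadjusted p under 0.05 and DESeq2 called 0. Between E16 and P16, 1 was called higher against 21.2% and none lower against 20.0%, with 2 at an unadjusted p under 0.05 and 1 called by DESeq2. Without P16 replicate 1, which leaves only set C at P16, 3 were called. In that fit 366 of all 689 tested miRNAs were called, against 286 of 694 in the full fit. Between P0 and P16 edgeR called none, against 8.07% higher and 8.07% lower, with 1 at an unadjusted p under 0.05 and 0 by DESeq2. Without P0 replicate 4 that count was 1, where 248 of all 690 tested miRNAs were called. Without P16 replicate 1 it was 2, where 217 of 689 were, against 112 in the full fit. With the set as a covariate 0, 1 and 0 members were called by edgeR, where 13.8%, 40.5% and 20.9% of all tested miRNAs were, and 1, 4 and 2 members had an unadjusted p under 0.05. The medians of the tested members were 0.82, 0.92 and 0.36, beside 0.17, 0.08 and -0.15 over all tested miRNAs, and turned to -0.41, -0.81 and -0.41 with the covariate, beside 0.04, -0.17 and -0.14.

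**Figure D3:**
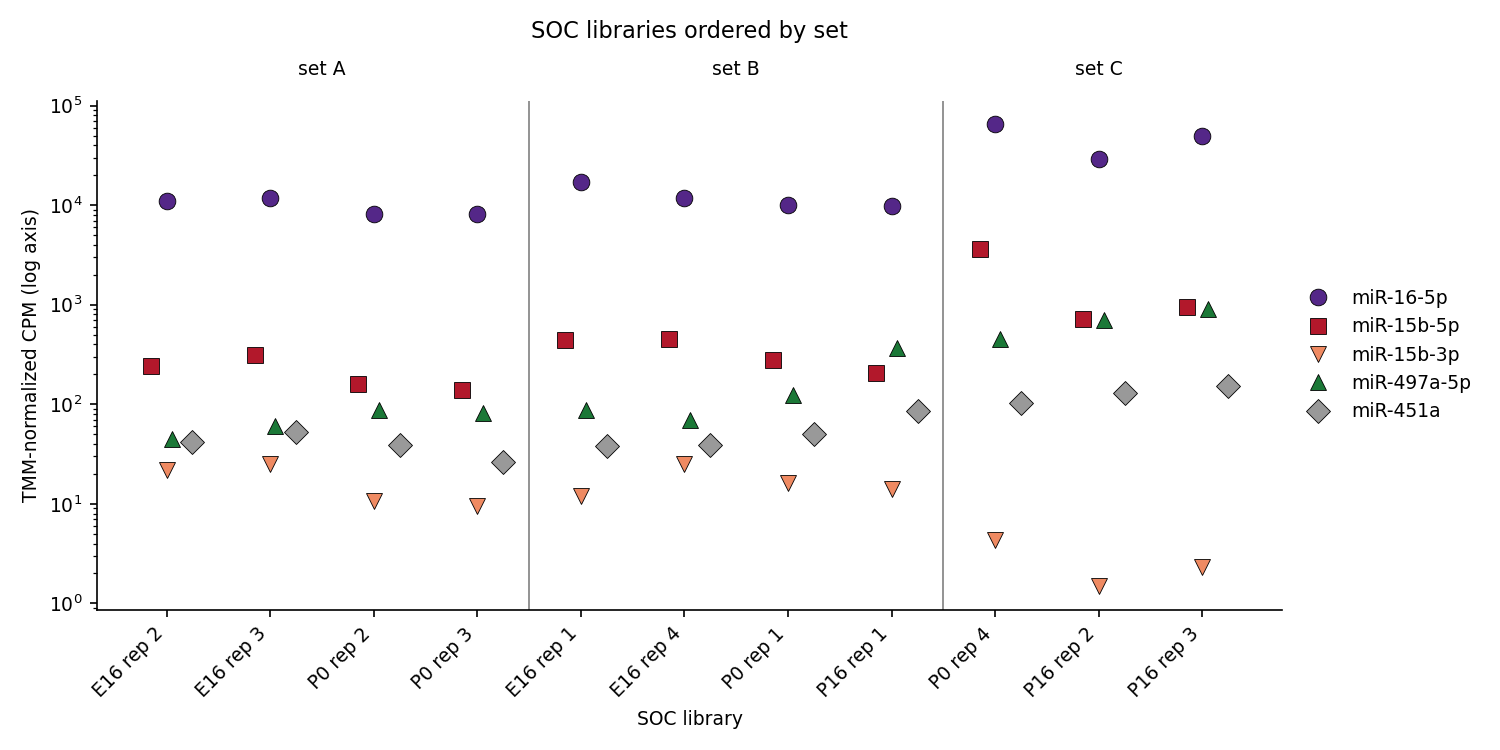
Levels of miR-16-5p, miR-15b-5p, miR-15b-3p and miR-497a-5p, with the red blood cell miRNA miR-451a, in the 11 SOC libraries ordered by set, in TMM-normalized CPM on a logarithmic axis. In set C, on the right, miR-16-5p runs from 29343 to 65421 and miR-15b-5p from 715 to 3593, above the other 8 libraries, and miR-15b-3p from 1.48 to 4.30, below them.

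Whether a member changed differently in the organs was tested by the organ-by-time interaction, the SOC change minus the cochlear change, in a single fit of all 21 libraries over the 545 miRNAs tested in both. None of the 5 members present passed at an adjusted p under 0.05 in any comparison by edgeR, where 11.9% (P0 against E16), 16.9% (P16 against E16) and 6.42% (P16 against P0) of all 545 did. At an unadjusted p under 0.05 there were 2, 1 and 0 members, and by DESeq2 0, 1 and 0. So in this fit the calls made for miR-15b-3p, miR-16-5p and miR-15b-5p in the cochlea and not in the SOC are not shown to differ between organs. Alternatives that did pass are given below.

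The largest of these differences was that of miR-15b-5p for P16 against E16, 3.23 (SE 1.17, adjusted p = 0.0576). It passed with DESeq2 (3.22) and with a replicate block (3.61). With scaling by library totals, which moved the median of all tested miRNAs by 0.68, it was 3.99 and passed. It also passed without cochlea E16 replicate 1 (3.95), cochlea P0 replicate 3 (3.44), SOC P0 replicates 2, 3 or 4 (3.23, 3.23 and 3.22) or SOC P16 replicate 1 (3.76). Without cochlea E16 replicate 2 it was 2.59 and with the SOC set as a covariate 0.51, and the adjusted p ran from 0.00220 to 0.519 over 26 alternatives. For P16 against P0 it was 0.87 (adjusted p = 0.631), and 3.28 and past the threshold without SOC P0 replicate 4.

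The difference of miR-16-5p was 2.05 for P0 against E16 (SE 0.958, adjusted p = 0.139), 1.45 for P16 against E16 and -0.60 for P16 against P0. Without SOC P0 replicate 4 the first was 0.66 and the last 0.79, and without SOC P16 replicate 3 the second was 0.74. With the covariate the difference for P16 against P0 was -1.50 and passed, as did miR-15b-3p for P0 against E16 (1.70 without and 2.04 with the covariate). In that fit 1, 0 and 1 members passed by edgeR, where 31.0%, 23.3% and 17.1% of all 545 did, and 1, 1 and 1 had an unadjusted p under 0.05. miR-497a-5p, called in both organs for P16 against E16, had a difference of 0.87 there (adjusted p = 0.628).

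Ratios of 2 members within a library need no scaling. miR-15b-5p and miR-16-5p, neighbours on chromosome 3, had log2 count ratios in the cochlea of -0.33 and 0.16 at E16, of -0.01, 0.52, 1.35 and 0.15 at P0 and of -2.41, -0.80, -2.61 and -2.41 at P16. All 4 libraries of P16 lay below the 6 earlier ones, so that miR-15b-5p made up less beside miR-16-5p at P16. The mean difference from P0 to P16 was -2.56 (exact two-sided permutation p = 0.0286, the smallest that 4 against 4 libraries can give, and 0.533 after adjustment over the 24 ratio tests). From E16 to P16 it was -1.97 (exact two-sided permutation p = 0.0667, the smallest that 2 against 4 libraries can give). In the SOC the ratio held between -5.88 and -4.19 in all 11 libraries, set C included.

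The 2 arms of the miR-15b hairpin are cut from a single precursor. In the cochlea the log2 ratio of miR-15b-3p to miR-15b-5p was 0.53 and -1.16 at E16, -2.41, -1.90, -2.81 and -1.87 at P0 and 0.38, -3.02, -1.77 and -1.09 at P16. P0 lay below E16, by -1.93 on average (exact two-sided permutation p = 0.0667, the smallest possible), and P16 spread over both. In the SOC it was -5.22, -3.46, -3.62 and -4.19 at E16, -4.12, -3.88, -3.85 and -9.69 at P0 and -3.86, -8.86 and -8.66 at P16. The 3 libraries of set C stood far below the 8 others. The mean difference of P16 from E16 was -3.00 (exact two-sided permutation p = 0.114, with 0.0286 the smallest possible), and 0.27 without set C.

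Over 4 ratios, 3 comparisons and 2 organs, 24 tests were made, of which 1 had an unadjusted exact p under 0.05 and 0 an adjusted one. The count at an unadjusted p was 0 when any 1 P0 library of the cochlea was left out, where the ratio of miR-15b-5p to miR-16-5p had an exact two-sided permutation p of 0.0571 from P0 to P16 (0.0286 the smallest possible), and 2 without cochlea P16 replicate 2 or SOC P0 replicate 2. The remaining ratios, of miR-195a-5p to miR-497a-5p and of miR-15a-5p to miR-16-5p, overlapped between all ages in both organs.

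**Figure D4:**
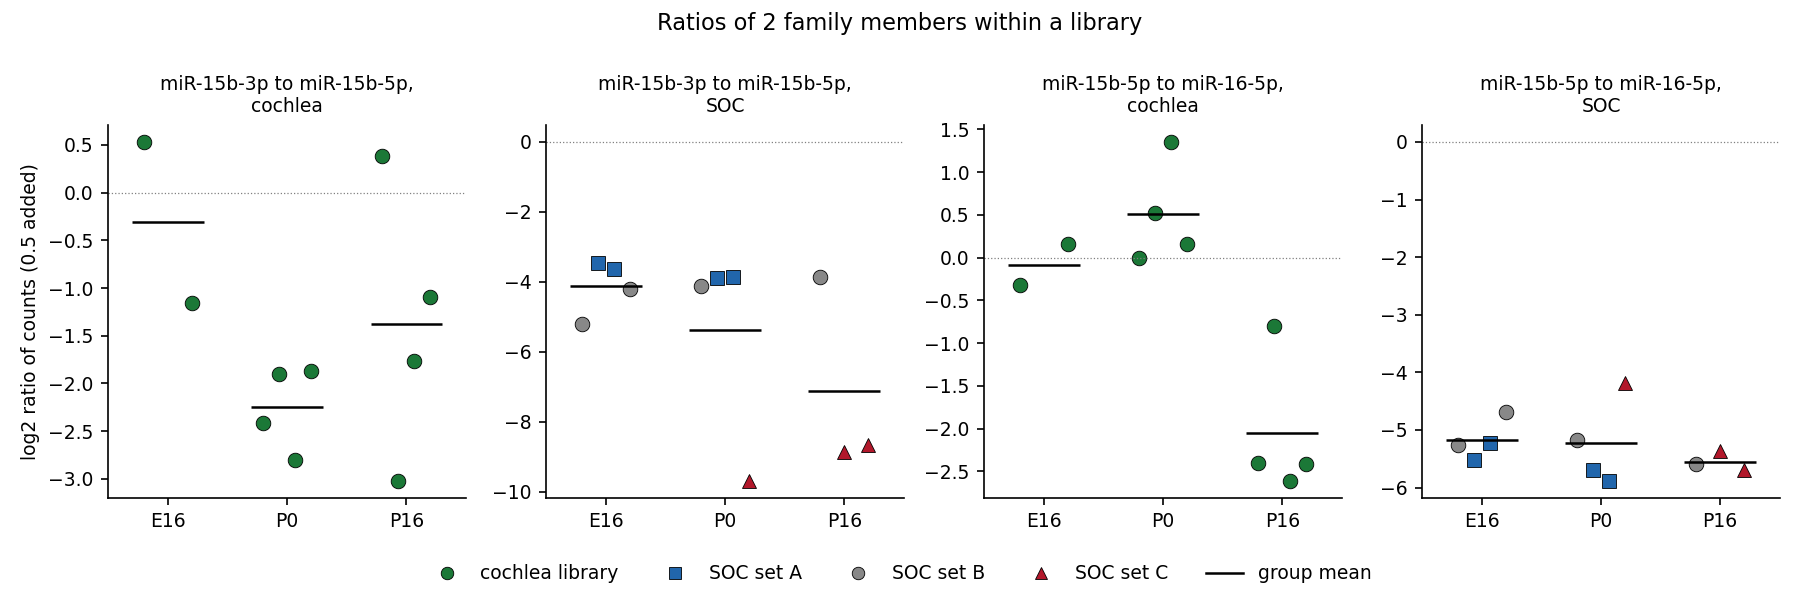
Log2 ratios of counts in each library by time point, for miR-15b-3p to miR-15b-5p and for miR-15b-5p to miR-16-5p, in the cochlea and the SOC, with 0.5 added to each count and lines at group means. In the cochlea the ratio of miR-15b-5p to miR-16-5p lies at -0.80 or lower in all 4 libraries of P16, and in the SOC the arm ratio lies at -8.66 or lower in the 3 libraries of set C.

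The other arms of the family's hairpins were scarce. In the cochlea, miR-16-2-3p, the opposite arm of the chromosome 3 copy of miR-16, had 55 and 109 counts at E16, 0 to 6 at P0 and 0 to 4 at P16, and was called lower at both later ages (adjusted p = 6.85e-05 and 3.16e-07). The summed counts gave ratios of 0.103 (95% exact interval 0.0535 to 0.181) and 0.0378 (0.0102 to 0.0985) to E16. miR-15a-3p, from chromosome 14, had 28 and 46 counts at E16, 0 to 6 at P0 and 0 to 2 at P16, and was called lower as well (adjusted p = 0.00437 and 0.000191), at ratios of 0.123 (0.0476 to 0.265) and 0.0418 (0.00497 to 0.157), although its 5p arm was near the floor. miR-16-1-3p had 11 and 7 counts at E16 and at most 1 later, which did not pass the test. For miR-16, only the 3p arms (miR-16-2-3p and miR-16-1-3p) name their locus. In the cochlea the chromosome 3 arm was the more frequent of them at E16, with 164 against 18 counts.

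In the SOC, miR-16-2-3p was lower at P16 than at E16 (-1.81, adjusted p = 0.0133), called also with the covariate (-1.38) but not without set C (-1.25). miR-195a-3p, the other arm of the miR-195a hairpin, stood at 2.26 to 3.52 CPM at E16, 2.04 to 2.89 at P0 and 5.94 to 7.996 at P16. P16 lay above both earlier ages, and the test called it higher than at E16 (1.24, adjusted p = 0.0183) and than at P0 (1.63, adjusted p = 0.0129), with 1.33 and 1.65 under the covariate and 1.39 and 1.66, not called, without set C. In the cochlea it had 1 to 14 counts and ratios of 0.842 (95% exact interval 0.385 to 1.78) for P0 against E16, 1.16 (0.553 to 2.39) for P16 against E16 and 1.38 (0.612 to 3.15) for P16 against P0. miR-497a-3p had 0 counts in the cochlea and at most 1 in a SOC library. SOC counts of miR-16-2-3p and miR-16-1-3p were 268 and 121 at E16, and 46 and 107 at P16. The chromosome 14 arms had SOC values of 0.57 (miR-16-1-3p) and 1.13 (miR-15a-3p) for P16 against E16, neither called. With the covariate these were 0.37 and -0.29, so that miR-15a-3p changed sign. Without set C, where P16 is replicate 1 alone, they were 0.31 and -0.38. The interactions of these arms in that comparison passed by edgeR without the covariate (4.06, adjusted p = 0.0459, and 5.60, adjusted p = 0.00942). They rest on cochlear counts at P16 of 1 (miR-16-1-3p) and 2 (miR-15a-3p), summed over the libraries. Their values with the covariate are not given here.

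Relatives with the same or a near seed were described beside the members. miR-322-5p, the X-linked relative that carries the same seed and also lowers cyclin messages, stood in the cochlea at 8428 and 8965 CPM at E16, at 2579, 979, 970.1 and 1241 at P0 and at 888, 194.7, 737 and 655 at P16. No ages overlapped, and it fell by 2.59 on the log2 scale from E16 to P0 (adjusted p = 1.18e-09), by 1.22 from P0 to P16 (adjusted p = 0.00381) and by 3.81 in all (adjusted p = 2.90e-19). At E16 it was therefore more abundant in the cochlea than any of the 6 members, on the same scale. In the SOC it stood at 263 to 684 CPM at E16, 129.8 to 279 at P0 and 123 to 188 at P16, and was called lower at P16 than at E16 (-1.64, adjusted p = 0.0125) and with the covariate (-2.05) too. The interaction for P16 against E16 was 2.00 (adjusted p = 0.0728).

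miR-503-5p, made from the same X-linked cluster with a seed that differs in its last base, is known for the same role. It fell in the cochlea from 275 and 283 CPM at E16 to 10.7 to 32.1 at P0 and 0 to 14.9 at P16, both called against E16. The summed counts, 264 at E16, 13 at P0 and 2 at P16, gave ratios to E16 of 0.0638 (95% exact interval 0.0335 to 0.111) and 0.0117 (0.00141 to 0.0428). In the SOC it fell from 30.1 to 54.1 CPM through 5.72 to 11.4 to 1.03 to 3.25 (-2.45, then -1.86, and -4.31 in all, each called), also with the covariate (-2.75, -2.16 and -4.92). The other carriers of the seed were at the floor: miR-195b had 0 counts in all cochlear libraries and 0 to 8 in the SOC, and miR-6419 at most 1 count.

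Other miRNAs known to act on G1 to S genes, a list of 29 names of which 28 are in the table and which includes miR-322-5p and miR-503-5p, moved in both directions. In the cochlea 26 were tested: 3 were called higher and 10 lower at P0 than at E16 (7.81% and 16.6% of all tested miRNAs), 5 higher and 7 lower at P16 than at E16 (10.9% and 18.6%), and 5 higher and 3 lower at P16 than at P0 (3.91% and 6.58%). Their medians were -1.61, 0.35 and 0.78, beside 0.00, -0.09 and 0.05 over all tested miRNAs, and -0.62 and 0.46 in the comparisons with P0 when the 3 miRNAs at 0 in every library of an age are set at their bound. In the SOC 24 were tested, with 3 higher and 1 lower (2.45% and 4.18% of all), 6 higher and 7 lower (21.2% and 20.0%), and 3 higher and 3 lower (8.07% and 8.07%) in the same order, and medians of -0.05, 0.48 and 0.11 beside 0.17, 0.08 and -0.15. With that covariate the SOC counts were 3 and 2, 6 and 7, and 3 and 4, and the medians -0.38, -0.36 and -0.06 beside 0.04, -0.17 and -0.14 over all tested miRNAs, so that the last pair changed sign.

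Members of this list with known roles show both directions. let-7b-5p, which rises as tissues mature and lowers cyclin D messages, was higher at P16 than at E16 in the cochlea (3.90, adjusted p = 2.21e-13) and in the SOC (5.06, adjusted p = 0.00177). The SOC value was smaller with the covariate (2.97, called) and without set C, with its lone P16 library (3.59). miR-34a-5p, induced by p53, was higher too (2.28, adjusted p = 3.57e-05, and 4.29, adjusted p = 0.000442). miR-20a-5p, of the growth-promoting miR-17 family, was lower (-4.64, adjusted p = 6.01e-20, and -2.31, adjusted p = 0.00110, or -1.96 with the covariate), with an interaction that passed (2.19, adjusted p = 0.0459). Its relative miR-93-5p was lower in the cochlea (-3.42, adjusted p = 2.34e-16) with a SOC value of 0.08 that did not pass, or -1.24 with the covariate, and the interaction for it passed as well (3.41, adjusted p = 0.00427). Those of let-7b-5p (1.03, adjusted p = 0.552) and miR-34a-5p (1.88, adjusted p = 0.0815) did not. These directions are set beside those of the family: miR-15b-5p fell in the cochlea while miR-497a-5p rose in both organs.

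**Figure D5:**
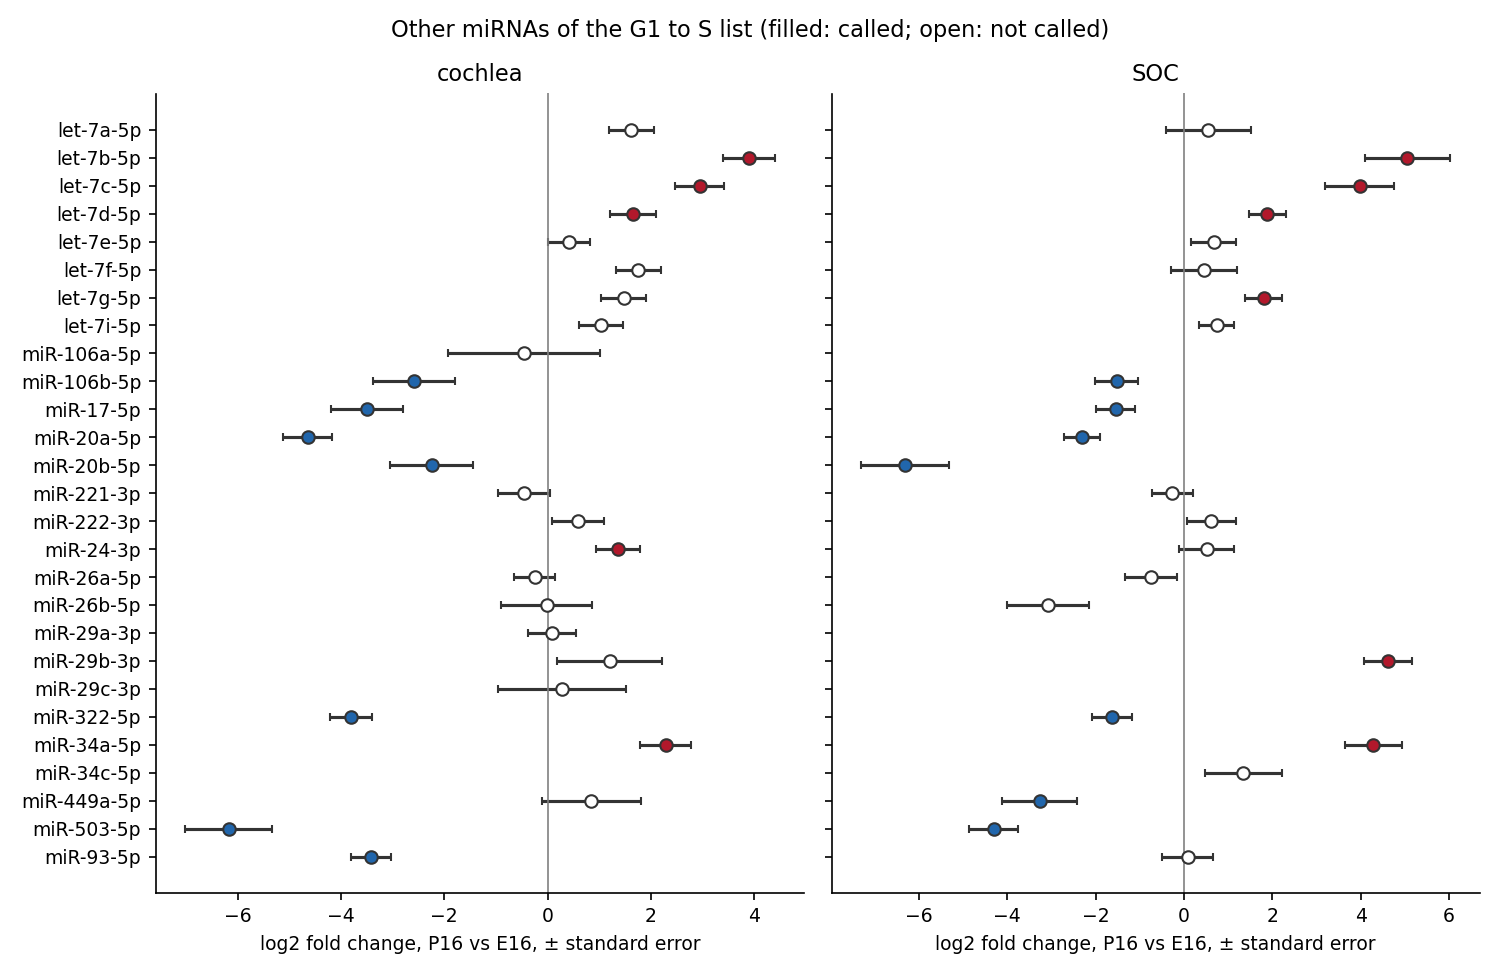
Log2 fold change from E16 to P16, with its standard error, for each tested miRNA of the G1 to S list outside the 6 members, in the cochlea (left) and the SOC (right), with filled points for called changes. let-7b-5p lies at 3.90 and 5.06 and miR-20a-5p at -4.64 and -2.31, so the list holds called changes in both directions in both organs.

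miR-16-5p is abundant in red blood cells, so their miRNAs are given beside it. Of 4 names, 3 are in the table (miR-451a, miR-144-3p and miR-144-5p, with miR-486a-5p missing). In the cochlea their summed level was 158 and 177 CPM at E16, 0, 19.5, 0 and 5.54 at P0 and 30.6, 0, 6.64 and 0 at P16, with miR-144-5p the most abundant. The defining miR-451a had 4 and 9 counts at E16 and 0 in all 8 later libraries, and miR-144-3p had counts in E16 replicate 2 alone. miR-16-5p and these markers were thus both lower at P0 than at E16, and at P16, where miR-451a was at 0, miR-16-5p stood at 491 to 1720.3 CPM. The part of blood in the P0 value was not tested.

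In the SOC the same sum was 88.7, 62.6, 78.5 and 62.0 CPM at E16, 77.1, 51.4, 33.1 and 143 at P0 and 104, 161 and 200.2 at P16, with miR-451a the most abundant in every library and none of the 3 at 0. miR-451a itself stood at 38.1, 42.0, 52.3 and 38.8, then 50.6, 39.2, 26.2 and 104, then 86.4, 128 and 154 CPM. It was high in set C and at P16, and called higher at P16 than at E16 (1.52, adjusted p = 0.0192), though not with the covariate (0.71, adjusted p = 0.0732) or without set C (0.97). miR-144-3p was at 25.1 to 34.5 CPM in set C and at 2.43 to 16.4 in the other 8 libraries. miR-144-5p, at 7.21, 7.85 and 11.4 CPM in set C, lay within the range of the other 8 libraries (4.47 to 34.2). The levels of miR-16-5p in set C, 29343 to 65421 CPM, thus go with higher miR-451a and miR-144-3p in the same libraries, but not with higher miR-144-5p. Their part in that result was not tested.

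The endothelial miR-126a-3p, the 1 of 2 endothelial names that the table lists, also moved with miR-16-5p. In the SOC it stood at 821 to 1361 CPM in sets A and B and at 7482, 3736 and 6156 in P0 replicate 4 and P16 replicates 2 and 3, the libraries of set C. In the cochlea it stood at 6029.8 and 6281 CPM at E16, 739 to 1429 at P0 and 2048 to 6972 at P16, called lower from E16 to P0 (-2.60) and higher from P0 to P16 (1.92). Its part in the values of miR-16-5p was not tested. White blood cell markers (miR-142a-3p, miR-142a-5p, miR-223-3p and miR-150-5p) summed to 1949 to 2444, 2082 to 3148 and 6329 to 29470.5 CPM at the 3 ages in the cochlea, and to 111 to 147, 163 to 237 and 665 to 840.5 in the SOC, with miR-150-5p the most abundant at P16. The rise was that of miR-150-5p: mean levels of the other 3 were lower at P16 than at E16 in both organs, and miR-223-3p was called lower in both (from 1448 to 575 CPM in the cochlea and from 11.6 to 2.38 in the SOC).

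Beside the rises of miR-195a-5p and miR-497a-5p, muscle and oligodendrocyte markers were looked up. Muscle markers (miR-1a-3p, miR-133a-3p and miR-206-3p) summed in the cochlea to 473 and 549 CPM at E16, 218 to 478 at P0 and 1098 to 4297 at P16, with miR-1a-3p the most abundant and 1 of the 3 at 0 in each library. The cochlear rise was that of miR-1a-3p, whose mean was 455 CPM in E16 libraries, 215 in P0 ones and 2858 in P16 ones. Mean levels of miR-206-3p in the same order were 55.9, 128 and 52.1 CPM, while miR-133a-3p stayed at 0. In the SOC the sum was 113 to 292, 10.002 to 22.7 and 9.01 to 24.2 CPM, so that P0 and P16 overlapped below E16. Oligodendrocyte markers (miR-219a-2-3p and miR-338-3p, the 2 of 3 names that the table lists) summed in the cochlea to 13.9 to 32.6, 6.42 to 66.5 and 296 to 511 CPM and in the SOC to 376 to 436, 174 to 434 and, at P16, 2574 (P16 replicate 2), 7748 (P16 replicate 1) and 2972 (P16 replicate 3), and miR-219a-2-3p was at 0 in 8 of the 10 cochlear libraries. Epithelial markers (7 names) summed to 14713 to 22593, 5660.2 to 7808 and 2499 to 7054 CPM in the cochlea and to 926 to 1963, 56.2 to 194.9 and 49.7 to 146 in the SOC. The cochlear sum was mostly miR-429-3p at E16, with means of 14888, 3387 and 3508 CPM at the 3 ages. Others did not follow it, with miR-200c-3p at 2555, 2647 and 1236 and miR-205-5p at 216, 434 and 215. The part of any of these cells in the family's values was not tested.

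The miRNAs whose levels ran most like those of miR-16-5p, by the correlation of log2 CPM over an organ's libraries among miRNAs whose mean reached 100 CPM, were in the SOC miR-126a-3p (r = 0.97), miR-31-5p (0.97), miR-532-5p (0.93), miR-24-2-5p (0.93) and miR-411-5p (0.92), among 171 candidates in 11 libraries. In the cochlea they were miR-379-5p (0.93), miR-26a-5p (0.93), miR-384-5p (0.87), miR-151-5p (0.84) and miR-21a-5p (0.84), among 239 candidates in 10 libraries. For miR-195a-5p they were in the cochlea miR-338-3p (0.93), miR-1a-3p (0.86), miR-30b-3p (0.84), miR-338-5p (0.83) and miR-30a-3p (0.83). In the SOC, where it is near the floor, they were let-7b-3p (0.93), miR-150-5p (0.93), miR-330-5p (0.92), miR-412-5p (0.91) and miR-338-5p (0.89). These are descriptions over libraries that share ages and sets, with no test, and say nothing of shared control.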

How the data were processed

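The deposited table holds read counts of mature miRNAs, which the authors made with Bowtie2 2.2.5 on build mm10, as the submitters' notes give it. The study's methods instead name Bowtie with a MirGeneDB reference, while the table lists 1647 names in the style of miRBase, and which of these made the counts is not settled. All 21 columns matched a sample, with 0 unmatched. Counts were fitted within each organ with edgeR 4.0.16 (quasi-likelihood F test, TMM) in R 4.3.3, over miRNAs over 1 CPM in 2 or more replicates of some age, and p-values were adjusted by Benjamini-Hochberg over all tested miRNAs. Log CPM used a prior count of 2. Ratios were tested by exact two-sided permutation (scipy 1.17.1). Alternatives were DESeq2 1.42.0, limma 3.58.1, other scalings and filters, 1 fit of all libraries, other calling rules, a replicate block, leaving out each library, and the SOC sets as a covariate or left out. Fits of set A, B or C alone were chosen after seeing the data. Replicate numbers were checked for pairing from the values: in the SOC, 4 of 4 same-number pairs of P0 and E16 libraries correlated, at r = 0.25 to 0.49, against 2 of 12 other pairs over 0.1. For P16 against E16 0 of 3 such pairs were over 0.1 (1 of 9 others), and for P16 against P0 1 of 3 (4 of 9 others). In the cochlea 1 of 2 (P0 against E16), 0 of 2 (P16 against E16) and 0 of 4 (P16 against P0) were. The block changed no member's call in the SOC. Named in full are the 6 members, with the other arms, same-seed relatives, the 5 most alike miRNAs, the G1 to S list and the marker lists by value. Members and lists were chosen with earlier results of these data known.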

Additional observations from a re-analysis of the deposited data

Results flagged for a closer look

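In 4 groups of 4 libraries, 24 sets of member values were examined for a library far from the others of its group by Dixon's rule. Chance meets it in about 5% of groups, and 7 met it, though those of miR-15a-5p in the cochlea did so by construction. In SOC P0 replicate 4, of set C, miR-15a-5p stood at 686 CPM (others 153 to 228), miR-15b-5p at 3593 (138 to 280.1), miR-16-5p at 65421 (8122 to 10124) and miR-497a-5p at 449 (82.3 to 125). In SOC E16 replicate 1, of set B, miR-16-5p stood at 17175 CPM (others 11099 to 11829). For miR-15a-5p in the cochlea, P0 replicate 2 stood at 19.5 CPM from 4 counts and P16 replicate 4 at 7.44 CPM from 1 count, with the others at 0. Where the others are at 0 any count meets the rule, so nothing is read from these cases near the floor. Why these libraries stand apart was not tested.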

How the results depend on the processing

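Of the values recomputed under alternatives, 1254 kept their direction and their side of the threshold, 38 counts moved by more than 1.5 times, 75 values turned in sign, 37 newly passed and 9 no longer passed. Those that bear on the results follow. The cause was not tested.

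In the cochlea, members called for P0 against E16 went from 2 to 1 in a single fit of all 21 libraries and to 1 with limma. There 115 and 177 of 896 tested miRNAs were called, against 219 in the main fit. For P16 against E16 members called went from 4 to 1 with at least 10 counts required in every library, which left 2 members to test. With that filter 106 of 173 tested miRNAs were called, against 265 of 896. The value of miR-16-5p turned to 0.20 with limma. For P16 against P0 members called went from 1 to 0 in the single fit (edgeR) and to 4 with no criterion on overlap. There 61 and 124 of 896 tested miRNAs were called, against 94. In the SOC, members called for P0 against E16 went from 0 to 3 in set A alone, where 214 of all 693 tested miRNAs were called, against 46 in the main fit. For P16 against P0 members called went from 0 to 1 with at least 10 counts, where 88 of 448 tested miRNAs were called, against 112 of 694. Members with an interaction went from 0 to 1 for P0 against E16 with the set covariate and to 1 with library totals, for P16 against E16 to 1 with DESeq2, to 1 with totals and to 1 with the replicate block, and for P16 against P0 to 1 with the covariate. Of all 545 tested miRNAs, 169 (covariate) and 143 (totals) passed for P0 against E16, against 65. For P16 against E16, 138 (DESeq2), 129 (totals) and 89 (block) passed, against 92. For P16 against P0, 93 passed with the covariate, against 35.

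With the set covariate, SOC values turned to -0.24 (miR-15a-5p), -0.57 (miR-15b-5p) and -0.41 (miR-16-5p) for P0 against E16, to -0.41, -1.83 and -0.81 for P16 against E16, and to -0.17 (miR-15a-5p) and -0.41 (miR-16-5p) for P16 against P0. Interactions turned to -0.66 (miR-16-5p) and -0.59 (miR-497a-5p) for P16 against E16 and to -0.69 (miR-497a-5p) for P16 against P0. Without set C the values were -0.22, -0.85 and -0.49, then -0.25, -0.88 and -0.44, then -0.030 (miR-15a-5p) and 0.099 (miR-15b-3p). Ratios without set C were 0.17, 0.27 and 0.092 for miR-15b-3p to miR-15b-5p, and 0.25 and 0.19 for miR-15a-5p to miR-16-5p at P0 and P16 against E16. In set A alone the P0 values were -0.34, -0.84 and -0.43. In set B alone, with 1 library each at P0 and P16, they were -0.077, -0.69 and -0.52, then -0.25, -1.15 and -0.56, then -0.17 (miR-15a-5p) and -0.042 (miR-16-5p). In set C alone, with 1 library at P0, they were -0.11 (miR-15a-5p) and -0.57 (miR-16-5p), and without set A -0.060 and -0.38, all for P16 against P0. With the replicate block, in the SOC miR-15b-5p turned to -0.018 for P0 against E16 and to 1.27 for P16 against P0, and the interaction of miR-16-5p for P16 against P0 to 0.40. With limma the SOC value of miR-15b-5p was 0.49 for P16 against P0, and the interaction of miR-497a-5p there was -0.078 with DESeq2 and -0.074 with RLE size factors.

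Leaving out each library in turn, members called ran from 1 to 3, 2 to 4 and 1 to 3 in the cochlea, 1 to 3 (P16 against E16) and 0 to 2 (P16 against P0) in the SOC, and 0 to 1 and 0 to 1 for the interaction in these comparisons. Over all tested miRNAs, calls ran from 209 to 366 (P16 against E16) and from 66 to 248 (P16 against P0) in the SOC. In the cochlea they ran from 82 to 135 for P16 against P0. Ratios at an unadjusted p under 0.05 ran from 0 to 2. Cochlear values ran from -0.071 to 1.06 (miR-497a-5p, P0 against E16) and -0.83 to 0.028 (miR-16-5p, P16 against E16). SOC values ran from -0.23 to 0.60 (miR-15a-5p), -0.86 to 1.88 (miR-15b-5p) and -0.49 to 1.11 (miR-16-5p) for P0 against E16, and from -1.10 to 1.73 (miR-15b-5p) and -0.035 to 1.78 (miR-16-5p) for P16 against P0. Interactions ran from -0.056 to 2.98 (miR-15b-5p) and -0.11 to 1.33 (miR-497a-5p) for P0 against E16, -0.24 to 2.03 (miR-15b-3p) for P16 against E16, and -1.93 to 0.33 (miR-15b-3p), -1.09 to 0.79 (miR-16-5p) and -0.39 to 0.97 (miR-497a-5p) for P16 against P0. SOC ratios ran from -1.77 to 0.17 (miR-15b-3p to miR-15b-5p), -0.40 to 0.16 (miR-15b-5p to miR-16-5p) and -0.14 to 0.25 (miR-15a-5p to miR-16-5p) for P0 against E16, and -0.53 to 0.034 (miR-15b-5p to miR-16-5p) for P16 against P0.

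Scaling by library totals moved the median of all miRNAs by -0.38 and -0.50 in the cochlea (P0 and P16 against E16), by 0.12 in the SOC (P0 against E16) and by 0.70 and 0.68 in the interaction. Quantile scaling moved it by 0.11 in the cochlea and by 0.13 and 0.16 in the SOC, all at P16, and RLE by -0.14 and -0.14 in the interaction at P16. The higher share of calls went from 32.0% to 15.6% (totals) or 47.5% (limma) and from 37.0% to 23.5% (totals) in the cochlea, from 37.0% to 49.0% (totals) in the SOC for P0 against E16, and from 75.4% to 92.3% and 65.2% to 86.0% (totals) in the interaction. Over all miRNAs, SOC calls for P0 against E16 went from 46 to 214 in set A alone, 96 with the covariate and 0 without set A (edgeR), and cochlear ones from 219 to 115 in the single fit.

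With 2 cochlear libraries at E16, all comparisons with that age rest on few samples, and counts of miR-15a-5p and miR-195a-5p there are too low to bound small differences. In the SOC no set holds more than 2 libraries of an age. Organ, strain and kit cannot be told apart.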
